A study of Homo sapiens with 24 samples.

Results

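The rows examined here are those named as antisense long noncoding transcripts in the table, meaning the rows whose gene name ends in -AS followed by a number. By convention such a name holds the symbol of a gene on the opposite strand, called the sense gene here. Of 26249 gene rows, 979 carry such a name, and the 331 of these that reached 1 FPKM in at least 3 of the 24 libraries are the members described. FPKM is fragments per kilobase of transcript scaled to the library, a deposited expression value. The members were chosen on their level over all libraries, so that level is a description and carries no test. Of the 331, 324 have a row for the sense gene, and 246 of these sense rows passed the same level. The 7 members with no row for the name before -AS are HOXA-AS2, HOXB-AS3, HOXC-AS1, JHDM1D-AS1, MLK7-AS1, RPARP-AS1 and TRG-AS1.

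The study treated MM1S and H929, human myeloma lines long kept in culture, with YKL-5-124 or with its vehicle DMSO, and sequenced RNA 6 h and 24 h later. YKL-5-124 is given as a CDK7 inhibitor. Each line, treatment and time is a group of 3 libraries, which gives 8 groups and 24 libraries made with a kit that reads the 3′ end of transcripts. The dose label is 83 nM for H929 and 98 nM for MM1S, also on the DMSO libraries, so line and dose cannot be told apart. The labels do not say whether the replicates were separate cultures, so the p-values measure the spread between these libraries, which may be technical.

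CDK7 is a kinase of the transcription factor TFIIH that acts on the tail of RNA polymerase II and on kinases of the cell cycle. Many human promoters start RNA in both directions, and many antisense transcripts begin close to the start of a protein-coding gene and run away from it. Others begin inside or beyond the sense gene and cross its exons. Some are stable and abundant, such as hosts of small nucleolar RNAs, while many others are degraded soon after they are made.

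The 300 bases around the start of 5 members are printed because these members rose or fell in the largest number of comparisons or stand for a pair discussed below. Each window runs from 250 bases before to 50 after the start and comes from RefSeq on GRCh38.p14, on the plus strand in all 5. Capitals mark matches, on either strand, to the GC box, spelled GGGCGG, to the CCAAT box, whose letters are its name, to the TATA box, spelled TATAAA here, and to the E-box, spelled CACGTG.
STARD7-AS1, chr2:96208166-96208465: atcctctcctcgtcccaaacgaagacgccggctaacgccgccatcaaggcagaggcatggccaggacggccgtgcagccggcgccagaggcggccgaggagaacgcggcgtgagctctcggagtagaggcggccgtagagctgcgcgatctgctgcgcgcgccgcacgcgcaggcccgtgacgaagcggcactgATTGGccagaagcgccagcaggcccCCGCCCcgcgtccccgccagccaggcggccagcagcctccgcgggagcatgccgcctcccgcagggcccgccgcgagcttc
SNAI3-AS1, chr16:88663123-88663422: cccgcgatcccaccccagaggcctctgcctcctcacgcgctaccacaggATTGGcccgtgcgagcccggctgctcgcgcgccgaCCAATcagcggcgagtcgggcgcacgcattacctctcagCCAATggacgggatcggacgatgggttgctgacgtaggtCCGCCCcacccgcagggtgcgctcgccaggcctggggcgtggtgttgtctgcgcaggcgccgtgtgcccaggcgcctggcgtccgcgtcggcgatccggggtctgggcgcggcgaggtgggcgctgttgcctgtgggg
ENO1-AS1, chr1:8878585-8878884: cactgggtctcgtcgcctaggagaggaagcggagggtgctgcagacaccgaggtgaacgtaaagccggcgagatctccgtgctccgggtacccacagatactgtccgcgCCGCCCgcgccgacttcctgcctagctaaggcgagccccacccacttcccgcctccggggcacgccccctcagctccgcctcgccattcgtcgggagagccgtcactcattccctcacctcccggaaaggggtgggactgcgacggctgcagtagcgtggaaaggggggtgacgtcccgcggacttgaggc
EPB41L4A-AS1, chr5:112160276-112160575: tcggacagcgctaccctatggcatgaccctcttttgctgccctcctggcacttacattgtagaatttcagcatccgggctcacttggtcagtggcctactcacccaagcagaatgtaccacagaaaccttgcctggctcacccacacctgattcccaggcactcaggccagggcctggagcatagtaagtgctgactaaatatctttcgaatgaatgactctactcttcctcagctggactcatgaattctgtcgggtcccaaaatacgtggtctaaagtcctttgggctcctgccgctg
OIP5-AS1, chr15:41283740-41284039: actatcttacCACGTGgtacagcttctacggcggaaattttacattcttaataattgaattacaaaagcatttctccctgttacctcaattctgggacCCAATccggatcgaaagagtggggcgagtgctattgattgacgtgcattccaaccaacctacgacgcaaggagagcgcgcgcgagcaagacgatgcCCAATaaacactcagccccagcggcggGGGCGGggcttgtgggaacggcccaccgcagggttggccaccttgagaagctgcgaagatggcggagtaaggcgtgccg

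The STARD7-AS1 window holds 1 GC box and 1 CCAAT box, with a GC content of 73.7%. That of SNAI3-AS1 holds 1 GC box and 3 CCAAT boxes at a GC content of 72.7%. In ENO1-AS1 the window has 1 GC box and 67.7% GC, and it overlaps the window of ENO1 on the other strand. EPB41L4A-AS1 has none of the 4 motifs at 52.3% GC. OIP5-AS1 has 1 GC box, 2 CCAAT boxes and 1 E-box at 54.3% GC. Windows were found for 201 members (240 windows). The GC box was in 51.7% of the members' windows and 45% of all 35116 windows, the CCAAT box in 30% against 34.6%, the TATA box in 5% against 11.5%, and the E-box in 7.92% against 7.26%. The median GC content was 64.3% for the members and 58.7% for all windows. The 430 windows of the sense genes held the GC box in 56.3%, the CCAAT box in 34.7%, the TATA box in 9.07% and the E-box in 7.91%. Their median GC content was 63%, close to that of the members, while their share with the CCAAT box was close to that of all windows. Among 178 pairs with a window for both genes, 59 had windows that overlapped on opposite strands. A match is a run of letters, not a measured binding site.

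The 8 plasma cell markers (SDC1, TNFRSF17, IRF4, XBP1, PRDM1, CD38, MZB1 and POU2AF1) were all at or above 1 FPKM in every library of 5 groups, and 7 of 8 were in the other 3 groups, all of MM1S. FGFR3 and WHSC1, overexpressed in H929 through its chromosome translocation, summed to 92.6 to 125 FPKM in H929 DMSO libraries at 6 h and to 21.4 to 24.8 FPKM in those of MM1S. MAF, which marks MM1S, lay between 30.0 and 54.0 FPKM in MM1S DMSO libraries at 6 h and between 17.7 and 23.4 FPKM in H929. In the DMSO libraries of 24 h it did not tell the lines apart, with 14.4, 24.0 and 10.9 FPKM in MM1S and 16.7, 18.0 and 13.9 FPKM in H929. The T cell list summed to at most 4.69 FPKM in any library. CD14, FCGR3A, EPCAM, KRT8, DCN and LUM stayed below 1 FPKM in all 24 libraries, while KRT18 (7.43 to 33.2 FPKM) and S100A9 (6.27 to 34.0 FPKM) were above it in every H929 library. Other markers of T cells, monocytes, epithelial cells and fibroblasts reached 1 FPKM in some libraries. These were CD3E in 14, S100A8 in 6, CD3G and COL1A1 in 4 each, and CSF1R and CDH1 in 1 each. The sum over all genes ranged from 361698 to 2519630 FPKM between libraries and was lower in MM1S at 24 h, where the vehicle libraries held 440282, 844759 and 399544. How the library scale was set, and the depth of each library, are not given in the sources used here. No value in the table is 0, and the lowest value of a library lay between 0.0370 and 0.137 FPKM, so a value near 0.1 FPKM is the level of a row without signal. In bulk RNA, fewer cells of a type and less RNA per cell cannot be told apart.

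The members' means over 24 libraries ran from 0.305 to 3775 FPKM with a median of 1.37 FPKM. There were 117 members with a mean below 1 FPKM, 76 with a mean of at least 5 FPKM and 41 with at least 10 FPKM. Of the 331, 73 reached 1 FPKM in all 24 libraries, 176 in at least 12, and 69 in only 3 to 5. A single library held between 115 and 262 members at or above 1 FPKM. The 8 members with the highest means were LRRC75A-AS1 (3775 FPKM), MIF-AS1 (256 FPKM), RUSC1-AS1 (215 FPKM), FBXO22-AS1 (123 FPKM), PRMT5-AS1 (91.1 FPKM), IQCH-AS1 (83.8 FPKM), MMP24-AS1 (81.0 FPKM) and EPB41L4A-AS1 (74.8 FPKM). LRRC75A-AS1 and EPB41L4A-AS1 are known hosts of small nucleolar RNAs. By the third-highest library, ZNF561-AS1, SEMA6A-AS1 and C1QTNF9B-AS1, each at 1.00 FPKM, were the last rows inside the rule. UPK1A-AS1 (0.996 FPKM), C1RL-AS1 (0.993 FPKM) and FUT8-AS1 (0.992 FPKM) were the first outside it. FPKM divides by transcript length although these reads come from the 3′ end, so the order of these means depends partly on transcript length and is only a description.

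Strand matters for these rows. The sources used here do not give the strand setting of the counting, so reads of an antisense transcript and of a gene that crosses it cannot be told apart. In GENCODE 29 on GRCh38, 326 members were matched by name. The match of HNRNPU-AS1 led to HNRNPU itself, so its strand and position are unknown, and it stays in the counts given here. Not all the others fit what the names say. With HNRNPU-AS1, 5 members were matched to genes annotated as protein-coding, MMP24-AS1 and TOPORS-AS1 among them, and 5 to pseudogenes. Of the 326, 169 had at least 50 of their last 500 exonic bases inside an exon of another gene and 157 did not. PRMT5-AS1 shows the ambiguity. It had a mean of 91.1 FPKM while the row of PRMT5, a methyltransferase, had a mean of 0.382 FPKM, and the 3′ end of PRMT5-AS1 lies in an exon of PRMT5. Values of members whose 3′ end lies in another gene's exon are therefore uncertain. These include ENO1-AS1, OIP5-AS1, PRMT5-AS1, EPB41L4A-AS1, LRRC75A-AS1, IL10RB-AS1 (in an exon of IFNAR2), MIF-AS1, AZIN1-AS1, RASSF1-AS1, CCND2-AS1, TOB1-AS1, ZNF341-AS1, MED4-AS1, ATP2A1-AS1, CATIP-AS1 and ASB16-AS1. ST3GAL4-AS1, STARD7-AS1, SNAI3-AS1, PARD3-AS1, CDC37L1-AS1, NDUFV2-AS1 and IFNG-AS1 had no such overlap. The 3′ ends of ACTA2-AS1 and C9orf173-AS1 are clear as well. Those of ACTA2 and C9orf173, however, lie in an exon of the antisense transcript, so the values of both members are uncertain too.

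To ask how the antisense transcripts responded to YKL-5-124, each line and time was compared with its DMSO group by limma on log2(FPKM + 1), fitted over 12418 genes. A row was called at a Benjamini-Hochberg adjusted p under 0.05 over all genes, and fold changes are on the log2(FPKM + 1) scale, which understates the change of low rows. In H929 at 24 h, 41 of 331 members rose and 38 fell. There, 2.67% of all genes rose and 35.4% fell, so the members' shares were 12.4% and 11.5%. At 6 h in H929, 10 members rose (background 1.03%) and 2 fell (1.16%). In MM1S at 6 h, 12 rose (0.926%) and 6 fell (10%). In MM1S at 24 h, 8 rose (0.684%) and 9 fell (6.77%). On this scale the share of members that rose was thus above that of all genes in each of the 4 comparisons, and the share that fell was below it. Membership rests on the level in these same libraries, so this is a description.

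**Figure D1:**
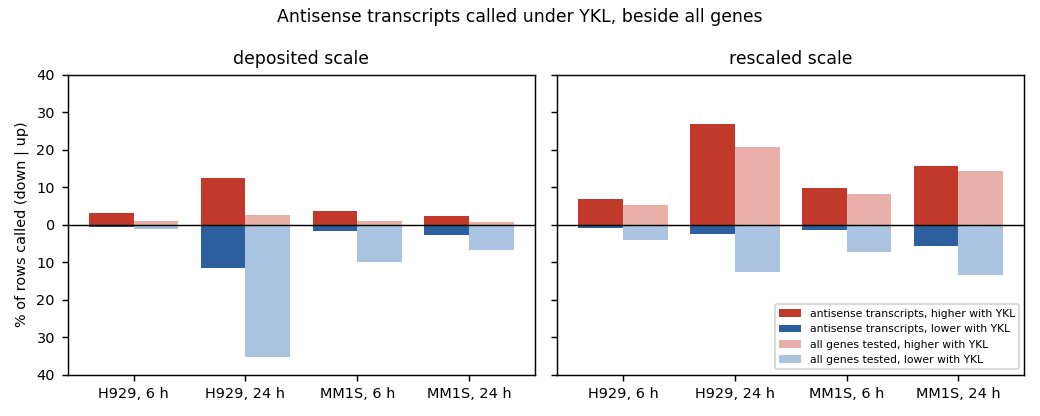
Share of rows called higher or lower after YKL-5-124 (y axis, percent of rows tested), for the 331 antisense transcripts and for all 12418 genes, in 4 comparisons, on the deposited scale and on a rescaled one. For H929 at 24 h the bars of the deposited scale show 12.4% of antisense transcripts higher against 2.67% of all genes, and 11.5% lower against 35.4%.

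The scale of the libraries sets much of the balance between rises and falls. After the libraries were rescaled by the median of ratios, 89 members rose and 8 fell in H929 at 24 h, where 20.8% and 12.5% of all genes did. The rescaled counts were 23 and 3 in H929 at 6 h (all genes 5.11% and 4.19%), 32 and 5 in MM1S at 6 h (8.25% and 7.21%), and 52 and 19 in MM1S at 24 h (14.4% and 13.3%). The median log2 change of the members in H929 at 24 h was 0.05 on the deposited scale against -0.46 over all genes, and 0.40 against 0.13 after rescaling. In the other comparisons the medians of members and all genes were 0.07 and -0.06 in H929 at 6 h, -0.07 and -0.29 in MM1S at 6 h, and 0.03 and -0.12 in MM1S at 24 h. A low row has little room to fall on this scale, and 76 of 331 members had a mean of at least 5 FPKM against 6736 of 12418 genes. Among those 76 members, 17.1% rose and 25% fell in H929 at 24 h, against 1.86% and 49.3% of the 6736 genes, a split made after seeing the data. In the other comparisons of that split the share of members that fell was 2.63% against 1.78% in H929 at 6 h, 2.63% against 13.9% in MM1S at 6 h and 10.5% against 10.3% in MM1S at 24 h, so it was below that of all such genes in 2 of 4. The share that rose was 2.63% against 0.386%, 2.63% against 0.193% and 3.95% against 0.757%.

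Some members met the level rule only through treated libraries and so had to look higher there. Of those that rose, 1 in H929 at 6 h, 5 in H929 at 24 h, 3 in MM1S at 6 h and 1 in MM1S at 24 h needed the YKL-5-124 group to pass. Of the 262 members that reached the level in DMSO libraries alone, a subset chosen after seeing the data, 31 rose and 38 fell in H929 at 24 h. In that subset, 8 rose and 2 fell in H929 at 6 h, 6 and 6 in MM1S at 6 h, and 5 and 9 in MM1S at 24 h. The other 69 members reached the level only with the help of treated libraries, and 18 of them rose in a comparison. Those described or listed below are ACTA2-AS1, AZIN1-AS1, C8orf37-AS1, CATIP-AS1, CCND2-AS1, CD27-AS1, GAS6-AS1, HOXB-AS3, LAMTOR5-AS1, LIPE-AS1, SLC25A5-AS1, ZNF213-AS1 and ZNF561-AS1, and their rises and p-values are a description that the choice of members helped to set.

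H929 cells at 6 h had few calls, led by ST3GAL4-AS1, which lies beside a gene of sialic acid transfer. Its DMSO libraries held 4.65, 3.21 and 4.97 FPKM and its YKL-5-124 libraries 14.6, 35.2 and 35.0 FPKM. All 3 treated libraries lay above all vehicle libraries, a log2 change of 2.39 ± 0.32 (SE, n = 3 per group, limma adjusted p = 0.000268). The other 7 with the largest rises were ACTA2-AS1 (1.49), ASB16-AS1 (1.47), SPTY2D1-AS1 (1.45), STARD7-AS1 (1.38), TOB1-AS1 (1.35), C9orf173-AS1 (1.31) and IDI2-AS1 (1.31). ACTA2-AS1 stood at 0.223, 0.862 and 0.133 FPKM in DMSO, near the level without signal, and at 1.75, 2.77 and 4.57 FPKM after treatment. TOB1-AS1 went from 0.759, 0.560 and 1.49 FPKM to 3.95, 3.87 and 3.68 FPKM, with no overlap. Its sense gene TOB1, an antiproliferative gene, rose as well, by a log2 change of 1.16 ± 0.28 (adjusted p = 0.0285).

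IL10RB-AS1 and EPB41L4A-AS1 were the 2 members that fell in H929 at 6 h. IL10RB-AS1 read 5.32, 10.7 and 6.46 FPKM in DMSO and 2.08, 1.80 and 1.40 FPKM after YKL-5-124. The groups were apart, with a log2 change of -1.58 ± 0.32 (adjusted p = 0.0107). IL10RB, a receptor chain for interleukin 10 and related cytokines, stood at 14.4, 25.6 and 17.8 FPKM and then at 37.9, 42.7 and 34.0 FPKM, without passing the test on the deposited scale (0.98 ± 0.28, adjusted p = 0.0638). After rescaling it did (1.14, adjusted p = 0.000303). EPB41L4A-AS1 read 134, 242 and 182 FPKM against 71.4, 92.7 and 87.5 FPKM (-1.11 ± 0.29, adjusted p = 0.0454). Of the 10 members named here, ST3GAL4-AS1, ACTA2-AS1 and C9orf173-AS1 passed in every fit that left out 1 library. These fits kept the rows chosen on all 24 libraries. ACTA2-AS1 met the level rule only with the help of treated libraries, so its passing remains a description. SPTY2D1-AS1 did not pass without YKL-5-124 replicate 3 (adjusted p = 0.0608), TOB1-AS1 without DMSO replicate 2 (0.0807), and IL10RB-AS1 without DMSO replicate 2 (0.0807) or YKL-5-124 replicate 3 (0.0539). The calls of STARD7-AS1, ASB16-AS1, IDI2-AS1 and EPB41L4A-AS1 were lost in 3 to 5 of 6 such fits, with adjusted p up to 0.263. The 12 calls at 6 h became 5 without YKL-5-124 replicate 3 and 6 without DMSO replicate 2.

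At 24 h in H929 the largest rise was that of ENO1-AS1, whose promoter faces that of the glycolytic enzyme ENO1. ENO1-AS1 stood at 3.22, 1.93 and 7.99 FPKM in DMSO and at 41.7, 19.5 and 38.4 FPKM after YKL-5-124. Every treated library was above every vehicle library (2.76 ± 0.52, adjusted p = 0.000333). ENO1 itself read 1690.1, 1793 and 1607 FPKM and fell to 896, 505 and 1002 FPKM (-1.14 ± 0.32, adjusted p = 0.00842). After rescaling, ENO1 no longer passed (-0.30, adjusted p = 0.173) while ENO1-AS1 did (3.35, adjusted p = 1.6e-05).

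ST3GAL4-AS1 rose again at 24 h, from 1.28, 2.13 and 1.09 FPKM to 16.7, 7.54 and 17.9 FPKM (2.53 ± 0.32, adjusted p = 5.19e-06). ZNF341-AS1, beside a zinc finger gene, was at 0.485, 0.126 and 0.119 FPKM in DMSO and at 5.27, 5.06 and 7.35 FPKM after treatment (2.47 ± 0.39, adjusted p = 5.08e-05). PARD3-AS1, beside a gene of cell polarity, went from 2.89, 4.97 and 3.21 FPKM to 27.3, 13.8 and 12.1 FPKM (1.94 ± 0.52, adjusted p = 0.00571). In all 3 the groups were apart. PARD3 did not pass the test (-0.20 ± 0.28, adjusted p = 0.615), with 11.0, 10.9 and 9.56 FPKM in DMSO and 10.4, 5.78 and 12.0 FPKM after treatment. CATIP-AS1 (2.01), CDC37L1-AS1 (1.79), ST3GAL6-AS1 (1.72) and AZIN1-AS1 (1.66) made up the rest of the 8 largest rises. CDC37L1-AS1 is the exception among them: its vehicle libraries held 10.1, 8.03 and 31.9 FPKM and its treated libraries 83.0, 25.5 and 60.1 FPKM, so the groups overlapped. Its call was lost in 3 of 6 fits that left out 1 library, with adjusted p up to 0.0977.

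EPB41L4A-AS1 had the largest fall in H929 at 24 h. Its DMSO libraries held 199, 221 and 185 FPKM and its YKL-5-124 libraries 37.4, 18.6 and 54.4 FPKM. No treated library came near the vehicle range (-2.54 ± 0.29, adjusted p = 1.63e-06). LRRC75A-AS1, the member with the highest mean FPKM, fell from 7722, 7974 and 7270.0 FPKM to 2811, 1440.0 and 3297 FPKM (-1.69 ± 0.34, adjusted p = 0.000523). PRMT5-AS1 fell from 176, 239.6 and 204 FPKM to 59.5, 36.5 and 77.7 FPKM (-1.87 ± 0.28, adjusted p = 3.77e-05). In each of them the replicate 2 library of the treated group was the lowest, and that library also had the smallest sum over all genes in H929, 653068 FPKM. All 3 fell after rescaling as well, by -1.71, -0.85 and -1.04.

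OIP5-AS1, a conserved RNA known to bind the microRNA miR-7, read 30.2, 27.6 and 25.5 FPKM in DMSO and 12.4, 8.64 and 11.7 FPKM after treatment, without overlap (-1.28 ± 0.24, adjusted p = 0.000315). The others among the 8 largest falls were ELFN1-AS1 (-1.61), PTOV1-AS2 (-1.53), IL10RB-AS1 (-1.38) and EP300-AS1 (-1.31). Among these, ELFN1-AS1 (-0.79, adjusted p = 0.129), EP300-AS1 (-0.57, 0.222) and IL10RB-AS1 (-0.60, 0.105) did not pass after rescaling. EP300-AS1 also lost its call without YKL-5-124 replicate 2 (adjusted p = 0.0951). Of the 16 members named at 24 h, 14 kept theirs in every fit that left out 1 library. CATIP-AS1 and AZIN1-AS1, which are among these, met the level rule only with the help of treated libraries.

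In MM1S at 6 h the largest rise was that of SNAI3-AS1, beside the gene of a zinc finger repressor. It stood at 3.82, 1.09 and 1.27 FPKM in DMSO and at 10.7, 6.74 and 9.22 FPKM after YKL-5-124, with no overlap (1.78 ± 0.35, adjusted p = 0.00321). HOXB-AS3, from the HOXB cluster, read 0.973, 0.0906 and 0.130 FPKM and then 2.69, 5.49 and 2.58 FPKM (1.71 ± 0.33, adjusted p = 0.0025). CCND2-AS1, beside the gene of cyclin D2, read 0.107, 0.0939 and 0.606 FPKM and then 2.72, 4.45 and 1.05 FPKM (1.47 ± 0.31, adjusted p = 0.00506). Several of these rises thus began at or near the level without signal. RASSF1-AS1 (1.54), ALOX12-AS1 (1.55), ZNF213-AS1 (1.44), YTHDF3-AS1 (1.33) and AZIN1-AS1 (1.17) completed the 8.

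MED4-AS1 had the largest fall there, from 4.08, 1.85 and 5.46 FPKM to 0.118, 0.150 and 0.0848 FPKM, values without signal (-2.02 ± 0.36, adjusted p = 0.0014). IFNG-AS1, an RNA beside the interferon gamma gene, went from 18.1, 22.9 and 20.8 FPKM to 8.99, 12.2 and 7.13 FPKM without overlap (-1.07 ± 0.25, adjusted p = 0.00843). FGF14-AS2 (-1.61), MLK7-AS1 (-1.02), EPB41L4A-AS1 (-0.99) and ATP6V1B1-AS1 (-0.91) were the other members that fell. EPB41L4A-AS1 went from 38.4, 36.0 and 40.1 FPKM to 19.1, 17.8 and 19.1 FPKM, values that are far apart, yet its call was lost in each of the 6 fits that left out 1 library, with adjusted p between 0.0636 and 0.0942. IFNG-AS1 lost its call without YKL-5-124 replicate 3 (0.0543), YTHDF3-AS1 without DMSO replicate 3 (0.076) and ZNF213-AS1 without YKL-5-124 replicate 2 (0.0553). AZIN1-AS1 lost its call without DMSO replicate 1 (0.0508) or YKL-5-124 replicate 2 (0.0793), and ALOX12-AS1, FGF14-AS2 and ATP6V1B1-AS1 lost theirs in 4 or 5 of 6 such fits. The count of calls, 18 in all, was 9 without YKL-5-124 replicate 2.

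At 24 h in MM1S, PARD3-AS1 and SNAI3-AS1 had the largest rises. PARD3-AS1 read 4.29, 10.8 and 0.874 FPKM in DMSO and 29.2, 23.0 and 30.0 FPKM after YKL-5-124 (2.53 ± 0.52, adjusted p = 0.00295). SNAI3-AS1 read 0.305, 2.47 and 0.293 FPKM and then 6.82, 6.53 and 6.25 FPKM (2.06 ± 0.35, adjusted p = 0.00045). In both, every treated library lay above the vehicle libraries. NDUFV2-AS1, beside a gene of mitochondrial complex I, followed with 1.11, 2.17 and 0.713 FPKM against 5.59, 6.17 and 3.76 FPKM (1.43 ± 0.30, adjusted p = 0.00309). HOXB-AS3 (1.37), C8orf37-AS1 (1.19), ZBED5-AS1 (1.07), PDCD4-AS1 (0.89) and ZNF561-AS1 (0.56) also rose. C8orf37-AS1 rested on 2 treated libraries, at 3.28 and 2.35 FPKM, with the other one at 0.0730 FPKM.

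ATP2A1-AS1, beside a calcium pump gene, had the largest fall in MM1S at 24 h, from 7.41, 10.2 and 5.49 FPKM to 0.0564, 1.90 and 0.749 FPKM (-2.28 ± 0.43, adjusted p = 0.0014). MIF-AS1, opposite the gene of a macrophage cytokine, went from 104, 142 and 89.1 FPKM to 41.0, 62.9 and 33.6 FPKM (-1.29 ± 0.30, adjusted p = 0.00749). Both fell without overlap between groups. IL10RB-AS1 (-1.33), CERS6-AS1 (-1.29), PRR34-AS1 (-1.11), P4HA2-AS1 (-1.10), TBX2-AS1 (-1.07), MMP24-AS1 (-0.97) and OIP5-AS1 (-0.85) were the others that fell. PARD3-AS1, SNAI3-AS1, NDUFV2-AS1 and ATP2A1-AS1 were the 4 of 16 named members that kept their call in every fit leaving out 1 library, while MIF-AS1 lost its own without YKL-5-124 replicate 3 (0.0555). HOXB-AS3 did not pass without DMSO replicate 1 (0.0526) or YKL-5-124 replicate 1 (0.101), and TBX2-AS1 (0.0713 and 0.0659) and PRR34-AS1 (0.0636 and 0.0505) did not without DMSO replicate 2 or YKL-5-124 replicate 1. The other 8 were lost in 3 or more of 6 such fits. The 17 calls became 7 without YKL-5-124 replicate 1, 9 without DMSO replicate 1, 10 without YKL-5-124 replicate 3, 11 without either replicate 2 and, at most, 25.

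On the deposited scale few members were called in more than 1 comparison, and none in both directions. Of the 331, 59 rose in at least 1 of the 4 comparisons, 10 in at least 2, and SNAI3-AS1 and STARD7-AS1 in 3. Another 49 fell in at least 1, 4 in at least 2, and EPB41L4A-AS1 and IL10RB-AS1 in 3. No call was made for 223. The 4 comparisons share no library. How many of all 12418 genes were called in 1 or more comparisons was not counted, so the recurrence of members is a description without a background. After rescaling, 134 members rose in at least 1 comparison, 45 in at least 2 and 12 in 3 or 4, while 30 fell in at least 1 and 4 in at least 2, and 3 were called in both directions. Both members with 3 rises on the deposited scale rose in all 4 comparisons after rescaling.

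STARD7-AS1, opposite the start of a lipid transfer protein gene, had a similar change in both lines. In H929 at 6 h it read 1.51, 3.15 and 2.26 FPKM in DMSO and 5.57, 6.88 and 10.5 FPKM after YKL-5-124 (1.38 ± 0.31, adjusted p = 0.0194). In H929 at 24 h the values were 2.55, 2.04 and 1.84 FPKM against 8.83, 3.30 and 9.34 FPKM (1.28 ± 0.31, adjusted p = 0.00283). In MM1S at 6 h they were 3.15, 1.48 and 3.41 FPKM against 4.92, 7.46 and 6.09 FPKM (0.99 ± 0.31, adjusted p = 0.0442). The groups were apart each time. In MM1S at 24 h, 2.52, 2.32 and 1.14 FPKM stood against 4.24, 5.81 and 4.67 FPKM, also apart, without passing the test (1.00 ± 0.31, adjusted p = 0.0509).

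SNAI3-AS1 in H929 at 24 h read 6.03, 10.0 and 5.73 FPKM in DMSO and 23.9, 14.1 and 29.4 FPKM after treatment (1.49 ± 0.35, adjusted p = 0.00218). At 6 h in that line it read 7.04, 7.28 and 6.84 FPKM and then 12.5, 17.2 and 18.9 FPKM, apart but not past the test (1.08 ± 0.35, adjusted p = 0.111). IL10RB-AS1 in H929 at 24 h read 12.6, 16.5 and 12.7 FPKM and then 4.48, 4.82 and 4.84 FPKM (-1.38 ± 0.32, adjusted p = 0.00214). The other members with 2 rises were AZIN1-AS1, HOXB-AS3, PARD3-AS1, SPTY2D1-AS1, ST3GAL4-AS1, TOB1-AS1, ZBED5-AS1 and ZNF561-AS1, and those with 2 falls were OIP5-AS1 and P4HA2-AS1. ST3GAL4-AS1, SPTY2D1-AS1 and TOB1-AS1 were called in H929 at both times, HOXB-AS3 in MM1S at both times, and the others in 1 comparison of each line.

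**Figure D2:**
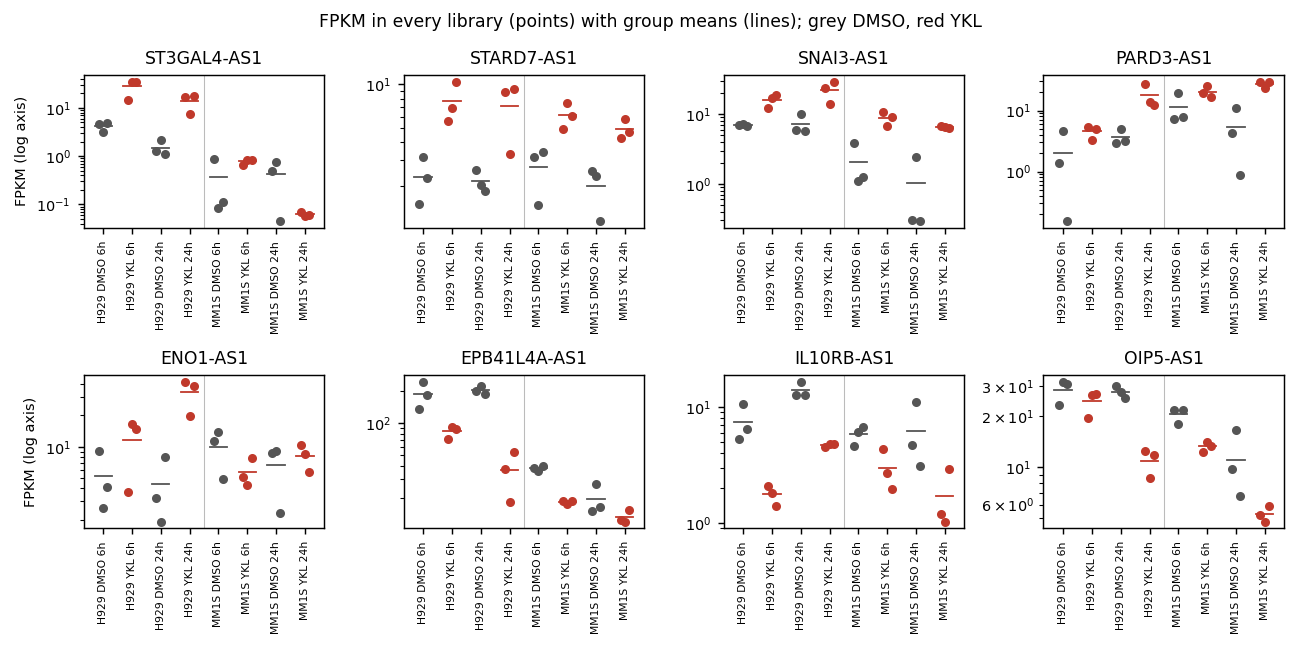
FPKM in each library (log axis) of 8 antisense transcripts by line and time, with grey points for DMSO, red points for YKL-5-124 and short lines for the group means. ST3GAL4-AS1 lay at or below 0.887 FPKM in all MM1S libraries, while STARD7-AS1 lay higher after YKL-5-124 in all 4 comparisons.

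**Figure D3:**
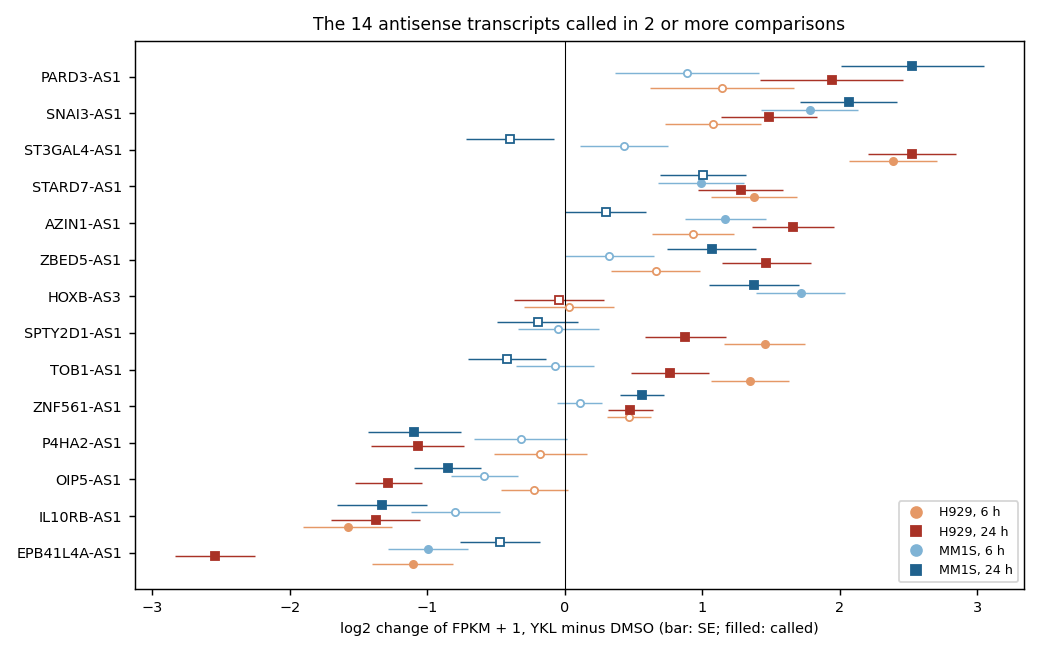
Log2 change on the log2(FPKM + 1) scale after YKL-5-124 (x axis, with SE bars) for the 14 members called in at least 2 of 4 comparisons on the deposited scale, filled where called. The 10 members that rose and the 4 that fell are each on one side of 0 wherever the point is filled.

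Whether the response differed between the lines was tested as an interaction. At 6 h, limma called 0 of 331 members (43 had an unadjusted p under 0.05), where 0.137% of all genes responded more positively in H929 and 0.0322% less. After rescaling 1 member responded more positively in H929 (0.725% of all genes). At 24 h, 3 members responded more positively in H929 than in MM1S (background 0.29%) and 5 less (1.07%). After rescaling 32 responded more positively (8.04% of all genes) and 10 less (4.32%). ST3GAL4-AS1 showed the largest difference, 2.93 ± 0.45 on the log2 scale (adjusted p = 0.0018). In MM1S its libraries at 24 h held 0.491, 0.768 and 0.0448 FPKM in DMSO and 0.0694, 0.0581 and 0.0603 FPKM after treatment, which is at or near no signal. EPB41L4A-AS1 differed by -2.07 ± 0.41 (adjusted p = 0.0132). Its MM1S libraries at 24 h read 15.1, 27.1 and 16.5 FPKM in DMSO and 12.7, 12.2 and 15.6 FPKM after treatment (-0.47 ± 0.29, adjusted p = 0.429). Those 2 kept their call in all 12 fits that left out 1 library. The total of 8 calls was 2 without MM1S DMSO replicate 1 or YKL-5-124 replicate 1, 4 or 5 without H929 DMSO replicate 2 or 3, H929 YKL-5-124 replicate 2 or MM1S YKL-5-124 replicate 2 or 3, and 22 without MM1S DMSO replicate 2.

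The sense genes were taken from the same fit. Of 244 distinct sense genes tested, 2 rose and 86 fell in H929 at 24 h, 3 and 33 in MM1S at 6 h, 3 and 3 in H929 at 6 h, and 0 and 22 in MM1S at 24 h. These are 0.82% and 35.2% in H929 at 24 h, against 2.67% and 35.4% of all genes, and 1.23% and 13.5% in MM1S at 6 h, against 0.926% and 10%. In H929 at 6 h they are 1.23% and 1.23%, against 1.03% and 1.16%. In MM1S at 24 h they are 0% and 9.02%, against 0.684% and 6.77%. After rescaling 55 rose and 25 fell in H929 at 24 h, which is 22.5% and 10.2% against 20.8% and 12.5% of all genes. Among the 246 pairs in H929 at 24 h, the antisense transcript rose and the sense gene fell in 12, both fell in 14, and both rose in 1, TOB1. The sense gene alone fell in 60 pairs, the antisense transcript alone rose in 22 or fell in 17, and neither was called in 119. The sense gene fell in 34.3% of the 35 pairs whose antisense transcript rose and in 35% of all 246 pairs, so the 12 opposite pairs are near the background. In MM1S at 6 h it fell in 5 of 9 such pairs and in 13.4% of all pairs, a difference that was not tested. The 12 opposite pairs were AZIN1, DICER1, ENO1, HCFC1, LAMTOR5, LIPE, SLC25A5, SNAI3, ST3GAL4, STARD7, VIM and ZNF341. In MM1S at 6 h the opposite pairs were AZIN1, CCND2, LEF1, RASSF1 and SNAI3. Among the antisense rows in these lists, AZIN1-AS1, CCND2-AS1, LAMTOR5-AS1, LIPE-AS1 and SLC25A5-AS1 met the level rule only with the help of treated libraries. The choice of members thus helped to set these counts. No pair was called in opposite directions in H929 at 6 h or in MM1S at 24 h.

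The count of opposite pairs depends on the scale. After rescaling there were 9 in H929 at 24 h, 7 in MM1S at 6 h, 3 in H929 at 6 h and 4 in MM1S at 24 h. Pairs called in the same direction numbered 21, 3, 3 and 20 in those comparisons after rescaling, against 15, 0, 1 and 2 on the deposited scale. In H929 at 24 h the rescaled ones were 20 in which both rows rose and 1 in which both fell. As background, the antisense row rose there in 76 of the 246 pairs, and 22.5% of the 244 sense genes rose. Whether 20 exceeds what these shares give was not tested. Opposite on both scales were HCFC1, SLC25A5 and STARD7 in H929 at 24 h, and AZIN1, LEF1, RASSF1 and SNAI3 in MM1S at 6 h. Of their antisense rows, SLC25A5-AS1 and AZIN1-AS1 met the level rule only with the help of treated libraries. RASSF1, a tumour suppressor gene, read 26.4, 23.5 and 28.6 FPKM in MM1S at 6 h and 13.0, 8.48 and 9.50 FPKM after YKL-5-124 (-1.28 ± 0.31, adjusted p = 0.011). RASSF1-AS1 read 0.841, 0.0860 and 0.125 FPKM and then 2.64, 2.32 and 3.53 FPKM (1.54 ± 0.30, adjusted p = 0.00256). Both rows were without overlap between the groups, in opposite directions.

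AZIN1, which codes for an antizyme inhibitor of polyamine metabolism, read 13.6, 12.6 and 10.1 FPKM in MM1S at 6 h and 5.47, 4.74 and 4.46 FPKM after treatment (-1.15 ± 0.26, adjusted p = 0.00819). AZIN1-AS1 read 0.106, 0.0863 and 0.120 FPKM, the level without signal, and then 1.38, 2.27 and 0.960 FPKM (1.17 ± 0.30, adjusted p = 0.0146). SNAI3 fell from 13.2, 15.2 and 14.7 FPKM to 10.3, 6.46 and 6.97 FPKM at the same time (-0.81 ± 0.26, adjusted p = 0.0488) while its antisense transcript rose as given above. The cyclin D2 gene CCND2 fell from 74.3, 77.8 and 86.6 FPKM to 38.4, 37.1 and 41.6 FPKM (-1.01 ± 0.29, adjusted p = 0.0297), and did not pass after rescaling (-0.55, adjusted p = 0.153). These 4 pairs differ in the sign of the change, and in 3 of them the antisense row began near 0.1 FPKM in at least 2 of 3 vehicle libraries.

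Within a library, the difference log2(antisense FPKM + 1) minus log2(sense FPKM + 1) changes little with the scale of the library where both rows are well above 1 FPKM. ENO1-AS1, SNAI3-AS1 and STARD7-AS1 were low in DMSO libraries, so their differences still depend in part on the scale. For ENO1 in H929 at 24 h the difference went from -8.46 ± 0.90 in DMSO to -4.56 ± 0.15 after YKL-5-124 (SD, n = 3, exact two-sided permutation p = 0.1). For SNAI3 in MM1S at 6 h it went from -2.44 ± 0.76 to 0.15 ± 0.18 (exact p = 0.1), and for STARD7 in H929 at 6 h from -6.07 ± 0.06 to -4.14 ± 0.33 (exact p = 0.1). For MIF in MM1S at 24 h, where both rows fell, it was -3.52 ± 0.34 and -3.35 ± 0.60 (exact p = 0.9). In 43 of the 53 named pairs and comparisons the 2 groups did not overlap, and with 3 libraries against 3 the smallest p of this test is 0.1, so none could pass 0.05. The non-overlapping pairs were 7 of 10 in H929 at 6 h, 15 of 16 at 24 h, 12 of 12 in MM1S at 6 h and 9 of 15 at 24 h. They were named because the antisense row changed in the same libraries, which makes this a description. The same count over all 246 pairs was not made. For single rows, the groups did not overlap for 2626 of 12418 genes in H929 at 6 h and for 6110 at 24 h. In MM1S that held for 4935 genes at 6 h and 2228 at 24 h.

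**Figure D4:**
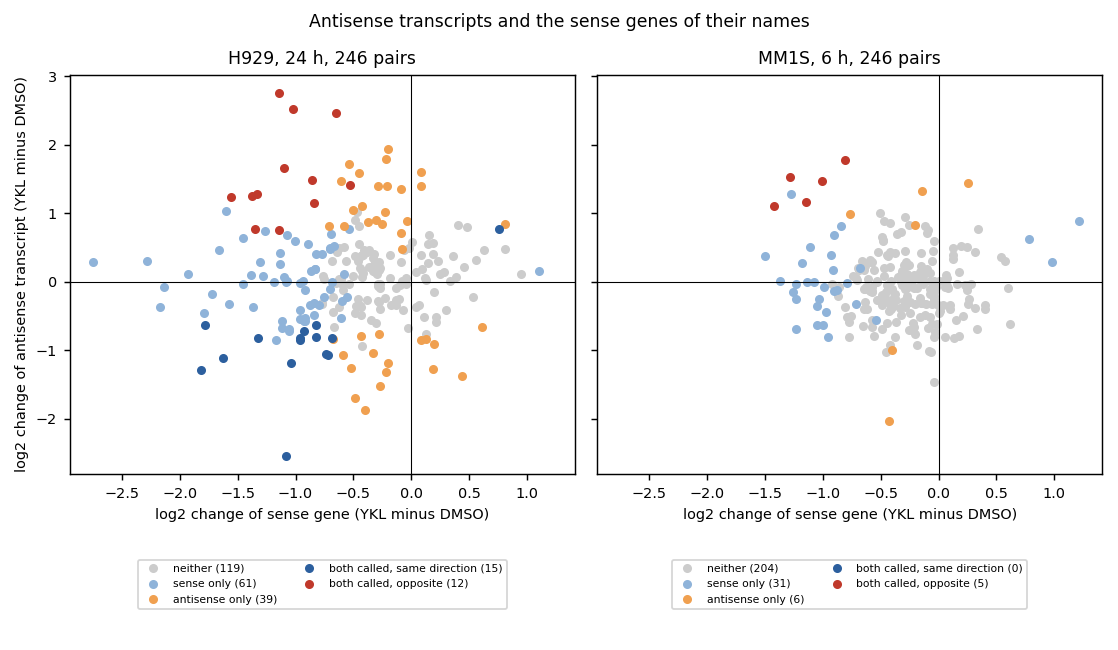
Log2 change after YKL-5-124 of the sense gene (x axis) and of its antisense transcript (y axis) on the log2(FPKM + 1) scale for 246 pairs, in H929 at 24 h and MM1S at 6 h, coloured by which of the rows was called. The 12 and 5 opposite pairs lie in the upper left of the panels.

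Some pairs among the named members moved together. OIP5, a centromere gene, fell with OIP5-AS1 in H929 at 24 h, from 101, 110.3 and 80.0 FPKM to 29.8, 17.1 and 37.1 FPKM (-1.81 ± 0.33, adjusted p = 0.000215). It fell with it in MM1S at 24 h as well, from 18.2, 43.1 and 14.9 FPKM to 4.20, 7.66 and 9.39 FPKM (-1.61 ± 0.33, adjusted p = 0.00269). The 3′ ends of OIP5-AS1 and OIP5 each lie in an exon of the other, so reads of the pair cannot be told apart. MIF, which fell in MM1S at 24 h from 1004, 2131 and 942 FPKM to 454, 417 and 515 FPKM (-1.45 ± 0.27, adjusted p = 0.00126), formed the other pair in which both rows were called there, and its 3′ end crosses MIF-AS1 in the same way.

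The position of the pair was read from GENCODE 29. The starts lay within 1000 bases of each other on opposite strands for 125 members. Some of these pairs, ENO1 among them, run apart only after crossing, since their exons overlap. Another 64 members overlapped the end of the sense gene from the other side. Another 61 lay inside the sense gene, 47 overlapped its start and 20 contained it. In H929 at 24 h the 125 members starting beside the sense start had 19 rises and 13 falls. The 64 overlapping the end of the sense gene had 4 rises and 11 falls. On the deposited scale, members inside the sense gene had 6 rises and 7 falls, and those overlapping its start had 6 and 4. Over all members 12.4% rose and 11.5% fell, and over all genes 2.67% and 35.4%. The numbers after rescaling were 48 and 1 for members beside the sense start and 10 and 3 for those overlapping the end. There the shares were 26.9% and 2.42% of all members, and 20.8% and 12.5% of all genes. No test compared these classes. In the same comparison 20 of the 157 members with a 3′ end clear of other exons rose and 15 fell, against 20 and 21 of the 169 whose end lay in one, a split made after seeing the data.

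Members were also counted by what the sense gene is known to do. Of 12 beside genes of the cell cycle and DNA repair, 1 rose and 2 fell in H929 at 24 h before rescaling, where 12.4% and 11.5% of all members and 2.67% and 35.4% of all genes did. TOPORS-AS1 rose (0.82) while OIP5-AS1 and USP2-AS1 fell. Of 33 beside transcription and chromatin genes, 4 rose (FOXN3-AS1, HOXC-AS1, ZNF341-AS1 and ZNF561-AS1) and MAFG-AS1 fell (-1.18). Of 12 beside genes of mitochondria and metabolism, 4 rose: LIPE-AS1 (0.76), SLC25A5-AS1 (1.23), ST3GAL4-AS1 and ST3GAL6-AS1. In that class ATP6V0E2-AS1 fell (-1.18). Of 15 beside genes of RNA processing and translation, SEPSECS-AS1 rose (1.03) and DDX11-AS1 fell (-0.63). DDX11 codes for a DNA helicase of sister chromatid cohesion, so that fall is not beside a gene of RNA processing, although the list holds it. Of 13 beside ubiquitin and signalling genes, GAS6-AS1 rose and IL10RB-AS1, MAPKAPK5-AS1 and PRKCQ-AS1 fell. After rescaling the rises and falls were 4 and 1 for the cell cycle, 11 and 0 for transcription, 4 and 1 for metabolism, 5 and 0 for RNA processing, and 4 and 0 for signalling, where 20.8% and 12.5% of all genes were called.

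In the other YKL-5-124 comparisons each class held at most 2 calls in a direction on the deposited scale. After rescaling a class held up to 7, the rises among the 15 of the RNA processing class in MM1S at 24 h. There 15.7% of all members and 14.4% of all genes rose, and the difference was not tested. PSMA3-AS1, beside a proteasome gene, was among these rises, although the list holds it under RNA processing. In H929 at 6 h, ZEB1-AS1 rose in the transcription class and ST3GAL4-AS1 in the metabolism class, and IL10RB-AS1 fell in the signalling class. In MM1S at 6 h, CCND2-AS1, ZNF213-AS1, HOXB-AS3, CD27-AS1 (0.95) and RASSF1-AS1 rose. In MM1S at 24 h, HOXB-AS3 and ZNF561-AS1 rose while OIP5-AS1, ATP2A1-AS1 and IL10RB-AS1 fell. The lists hold 85 members and the other 246 are in none of them.

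Some well-known antisense transcripts did not pass in any YKL-5-124 comparison on the deposited scale. CDKN2B-AS1, also called ANRIL, which lies at a locus of cell cycle inhibitors, had log2 changes of 0.32 ± 0.25, 0.07 ± 0.25, -0.58 ± 0.25 and 0.01 ± 0.25 in the comparisons H929 6 h, H929 24 h, MM1S 6 h and MM1S 24 h. Its highest library held 2.19 FPKM. MCM3AP-AS1, TMPO-AS1 and FGD5-AS1 did not pass either, with FGD5-AS1 in H929 at 24 h the nearest of these (-0.60 ± 0.24, adjusted p = 0.0557). After rescaling TMPO-AS1 fell in MM1S at 24 h (-0.70, adjusted p = 0.0159), as did TMPO. ZEB1-AS1, beside the gene of a repressor of epithelial genes, rose in H929 at 6 h, from 0.628, 0.957 and 1.47 FPKM to 3.02, 2.47 and 3.05 FPKM (0.95 ± 0.21, adjusted p = 0.0168). GAS6-AS1 rose in H929 at 24 h from 0.109, 0.108 and 0.108 FPKM, the level without signal, to 1.33, 0.411 and 1.38 FPKM (0.84 ± 0.27, adjusted p = 0.0164). MAPKAPK5-AS1 fell there from 18.0, 22.9 and 17.0 FPKM to 11.0, 7.15 and 17.7 FPKM, with overlap (-0.72 ± 0.26, adjusted p = 0.0319), and did not pass after rescaling (0.06, adjusted p = 0.796).

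Between the lines, the DMSO libraries of both times were compared. On the deposited scale 107 members were higher in H929 (background 61.7%) and 54 higher in MM1S (10.3%). After rescaling the counts were 48 and 139, where 26.6% and 41.1% of all genes were called, and 102 members were called in the same direction on both scales while 8, OIP5-AS1 among them, were called in opposite directions. PRMT5-AS1 had the largest difference, with 200.1, 223 and 236 FPKM in H929 at 6 h and 23.9, 29.7 and 22.0 FPKM in MM1S (3.73 ± 0.20 over both times, adjusted p = 1.6e-13). ELFN1-AS1 (3.63), UBXN10-AS1 (3.57) and MMP24-AS1 (3.50) came next. UBXN10-AS1 read 12.3, 11.9 and 12.0 FPKM in H929 at 6 h and 0.0999, 0.0834 and 0.108 FPKM in MM1S, where it was without signal.

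Of the members higher in MM1S, IFNG-AS1 was first, with 18.1, 22.9 and 20.8 FPKM in MM1S at 6 h and 0.324, 0.140 and 0.303 FPKM in H929 (-3.65 ± 0.17, adjusted p = 1.59e-14). FEZF1-AS1 (-2.52), GDNF-AS1 (-1.66), CDC37L1-AS1 (-1.55) and DPP10-AS1 (-1.53) followed. FEZF1-AS1 stood at 8.62, 7.20 and 7.06 FPKM in MM1S at 6 h and at 0.111, 0.128 and 0.144 FPKM in H929. The members named here for either line kept their direction and their call after rescaling. OIP5-AS1 is an example of the others, higher in H929 on the deposited scale (0.90 ± 0.17, adjusted p = 6.08e-05) and lower after rescaling (-0.27, adjusted p = 0.0194).

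**Figure D5:**
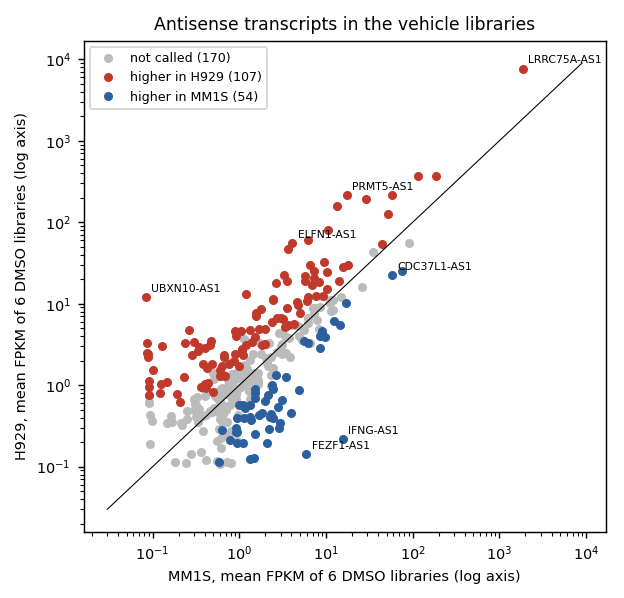
Mean FPKM over the 6 DMSO libraries of MM1S (x axis) and of H929 (y axis) for the 331 members, both axes log, coloured by the call between the lines. PRMT5-AS1 and UBXN10-AS1 lie above the diagonal and IFNG-AS1 and FEZF1-AS1 below it.

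The vehicle libraries of 24 h and 6 h were compared to see how far untreated cells differed. In H929, 2 members rose with time (background 0.105%), and limma called 0 that fell (7 at an unadjusted p under 0.05), where 0.0403% of all genes fell. After rescaling the counts were 2 and 0, against 0.644% and 0.378% of all genes. MGAT3-AS1 rose from 0.109, 1.33 and 0.141 FPKM to 6.27, 5.03 and 6.32 FPKM (2.26 ± 0.34, adjusted p = 0.00278), and then read 2.50, 0.606 and 3.04 FPKM in the treated libraries of 24 h. GPR158-AS1 was the other one (1.20 ± 0.23, adjusted p = 0.0228), with an adjusted p of 0.0747 after rescaling and a call lost in 5 of 6 fits that left out 1 library. In MM1S, 3 rose (background 0.258%) and 63 fell (56%). After rescaling 42 rose and 2 fell there (10.3% and 5.39% of all genes), so the direction of this difference depends on the scale, and 5 members kept call and direction on both. The 66 calls were 42 without DMSO 24 h replicate 3.

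In MM1S, FOXD3-AS1 (1.36), CECR5-AS1 (1.21) and TNRC6C-AS1 (0.85) rose on the deposited scale, and rose after rescaling too. The calls of FOXD3-AS1 and CECR5-AS1 were lost in 3 and 4 of 6 fits that left out 1 library. USP30-AS1 fell from 24.4, 17.4 and 17.7 FPKM at 6 h to 3.71, 9.08 and 2.78 FPKM at 24 h (-1.87 ± 0.31, adjusted p = 0.000134; after rescaling -0.84, adjusted p = 0.0289). MED4-AS1 fell from 4.08, 1.85 and 5.46 FPKM to 0.110, 1.13 and 0.0562 FPKM (-1.74 ± 0.36, adjusted p = 0.000577; after rescaling -1.43, adjusted p = 0.0133). ARRDC1-AS1 (-1.86), NAPA-AS1 (-1.66) and RUSC1-AS1 (-1.64) fell on the deposited scale and did not pass after rescaling, with -0.84, -0.80 and -0.46.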

How the data were processed

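RNA from 24 libraries was measured, and the table holds 26341 rows, of which 92 are spike-ins and were left out. The values are FPKM as deposited by the authors, and per the submitters' processing notes HISAT2 and Cuffnorm were used, with versions, strand setting and scaling not given in the sources used here. Replicates were not pooled by the authors, and no depth is known. The files contain no counts, so count models were not used.

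Groups were taken from the sample labels. log2(FPKM + 1) was fitted with limma 3.58.1 (trend, R 4.3.3) over the 12418 genes that reached 1 FPKM in 3 or more libraries, with 8 group means, and p-values were adjusted over all genes (Benjamini-Hochberg, threshold 0.05, two-sided). The fit was tested on simulated data. The members, the gene lists and the tests were chosen with earlier results of these data known. Promoter windows came from RefSeq on GRCh38.p14 and gene positions from GENCODE 29, while the files use hg19, so positions were used only for the arrangement of genes matched by name.

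Named were, per YKL-5-124 comparison, the 8 called members with the largest rise and the 8 with the largest fall, and per other comparison the 5 of each sign. The 8 highest members, the 3 rows on each side of the level rule and 13 well-known transcripts were named as well, those of the 13 that are members. One member that the rule names is not reported here. Alternatives were a median-of-ratios rescaling over genes whose geometric mean was 5 FPKM or more, a pseudocount of 0.1, no filter, a mean of at least 1 FPKM, a replicate block, leaving out the 2 libraries with the most scattered spike-ins, and leaving out each library in turn. Further alternatives were chosen after seeing the data: members that met the level in DMSO libraries alone, members with a mean of at least 5 FPKM, members with a 3′ end in no other exon, and H929 YKL-5-124 24 h without replicate 2.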

Additional observations from a re-analysis of the deposited data

Results flagged for a closer look

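The response to YKL-5-124 at 24 h differed between H929 and MM1S for 8 members in the test of the difference itself (limma interaction, adjusted p under 0.05), given here as the H929 log2 change minus the MM1S log2 change. It was larger in H929 for ST3GAL4-AS1 (2.93, adjusted p = 0.0018), ZNF341-AS1 (2.31, adjusted p = 0.0354) and VIM-AS1 (1.45, adjusted p = 0.0195). It was lower in H929 for PTOV1-AS2 (-2.11, adjusted p = 0.0421), EPB41L4A-AS1 (-2.07, adjusted p = 0.0132), PRMT5-AS1 (-1.72, adjusted p = 0.0341), ZNRD1-AS1 (-1.34, adjusted p = 0.0432) and ATP6V0E2-AS1 (-1.26, adjusted p = 0.0166). All 8 passed after rescaling as well.

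ZNF341-AS1 read 1.42, 1.15 and 0.199 FPKM in the MM1S vehicle libraries and 0.946, 1.18 and 1.06 FPKM in the treated ones, against its rise in H929. VIM-AS1, opposite the gene of vimentin, went from 0.994, 1.45 and 0.763 FPKM to 2.53, 2.24 and 2.75 FPKM in H929 and stood at 1.73, 1.98 and 0.609 FPKM against 0.410, 0.408 and 0.594 FPKM in MM1S. ZNRD1-AS1 stood at 3.82, 1.67 and 1.55 FPKM against 1.51, 0.550 and 1.26 FPKM in H929, and at 0.160, 0.677 and 0.292 FPKM against 1.36, 1.31 and 1.00 FPKM in MM1S. ATP6V0E2-AS1 fell in H929 from 3.85, 3.29 and 3.32 FPKM to 1.46, 0.742 and 0.798 FPKM, while no MM1S library of 24 h exceeded 0.514 FPKM. PTOV1-AS2 fell in H929 from 7.16, 7.84 and 6.11 FPKM to 3.17, 0.492 and 2.46 FPKM, and stood at 1.16, 3.94 and 1.74 FPKM against 4.79, 3.33 and 2.97 FPKM in MM1S. PRMT5-AS1 stood at 8.24, 14.6 and 5.72 FPKM against 7.09, 7.50 and 9.28 FPKM in MM1S.

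Leaving out 1 of 12 libraries at a time, ATP6V0E2-AS1 lost its call without MM1S DMSO replicate 1 (0.0501) or MM1S YKL-5-124 replicate 1 (0.0546). VIM-AS1 lost it in 4 of 12 such fits, PRMT5-AS1, ZNF341-AS1 and ZNRD1-AS1 in 8, and PTOV1-AS2 in 9. The sum over all genes in MM1S at 24 h was 399544 to 844759 FPKM in DMSO and 361698 to 430746 FPKM after YKL-5-124, and its part in these differences was not tested.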

How the results depend on the processing

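Rescaling the libraries moved the counts of members called from 12 to 26 in H929 at 6 h, from 18 to 37 in MM1S at 6 h, from 17 to 71 in MM1S at 24 h, and from 0 to 1 and 8 to 42 in the tests between lines at 6 h and 24 h. The pairs called in opposite directions went from 0 to 3 in H929 at 6 h and from 0 to 4 in MM1S at 24 h. A pseudocount of 0.1 gave 7 members in H929 at 6 h, 2 in the test between lines at 24 h, 1 with time in H929, and 3 opposite pairs in MM1S at 6 h against 5. Without a filter there were 49 members in H929 at 24 h against 79, 3 between lines at 24 h and 1 with time in H929. Without the 2 libraries of scattered spike-ins there were 9 in MM1S at 6 h, 10 in MM1S at 24 h and 2 between lines at 24 h. The cause was not tested. Leaving out 1 library at a time gave 5 to 13 in H929 at 6 h, 53 to 78 in H929 at 24 h, 9 to 18 in MM1S at 6 h, 7 to 25 in MM1S at 24 h, 0 to 2 and 2 to 22 between lines at 6 h and 24 h, 144 to 160 between vehicle lines, and 1 to 2 and 42 to 85 with time in H929 and MM1S.

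The deviations of same-numbered replicates from their group means correlated at -0.11 to 0.18, and in no comparison did all pairs exceed 0.1, so the numbers were not taken to pair libraries. With the replicate block, 9, 72, 15 and 13 members were called for H929 6 h, H929 24 h, MM1S 6 h and MM1S 24 h, and 0 and 2 between lines. The block was not run between lines or times without drug. Among the named calls, rescaling reversed MAPKAPK5-AS1 in H929 at 24 h (0.0585) and OIP5-AS1 between vehicle lines (-0.27), lost 9 and kept 78. Calls lost and kept were 157 and 491 over the leave-one-out fits, 17 and 72 with a pseudocount of 0.1, 21 and 68 without a filter, 18 and 50 with the block, and 21 and 68 without the 2 scattered libraries. With a mean of at least 1 FPKM they were 0 and 78. Named members below that mean were left out of this fit, so their calls are in neither number. The depth of the libraries is unknown.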

Other observations

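The summed FPKM of the antisense members made up 0.293% to 0.562% of the sum over all genes per library. LRRC75A-AS1 alone set much of that level, since without it the members' sum ranged from 711 to 3670 FPKM against 1648 to 12380 FPKM with it.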
